A study of Mus musculus with 16 samples.

Results

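The chromosome condensation genes described here are 10 named genes among the 49166 genes measured in 16 RNA-seq libraries of cultured mouse cortical neural progenitor cells (NPCs). They are Mki67, Cdca2, Top2a, Smc2, Smc4, Ncapd2, Ncapg, Ncaph, Ncapd3 and Ncapg2. They were chosen by function together with their measured fold changes in these libraries, that is, because they were lower in the group given enzalutamide, so their values in the comparisons with that group are a description and carry no test. All 10 passed the filter on low counts.

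The cells came from E18.5 (embryonic day) cortex and were grown as NPCs with FGF-2 and EGF. All 16 libraries, controls included, came from cells transduced with a lentivirus that carries Cas9 and a puromycin resistance gene, selected with puromycin for 48 h and then expanded. In the group called WT DMSO the lentivirus carried Cas9 alone, and the cells received the DMSO vehicle. The other 3 groups carried Cas9 with a guide RNA against Chd1, which encodes a chromatin remodeler, and are labelled Chd1 knockout (KO): KO DMSO received vehicle, KO DHT received 10 nM of the androgen dihydrotestosterone, and KO DHT+ENZ received 10 µM of the androgen receptor antagonist enzalutamide 30 min before 10 nM DHT. Treatment lasted 24 h, and each group had 4 biological replicates from 2 litters. Which replicate came from which litter is not stated in the labels, and the KO cells were a transduced and selected population, with no clone named. Among the libraries used here genotype is compared only under vehicle, and enzalutamide only on top of DHT in KO cells.

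Chromosomes are compacted for division by condensin, a ring built on the ATPases Smc2 and Smc4 that extrudes loops of DNA. Condensin I adds Ncapd2, Ncapg and Ncaph and reaches chromosomes after the nuclear envelope breaks down, while condensin II adds Ncapd3, Ncapg2 and Ncaph2 and is nuclear throughout the cell cycle. Topoisomerase II alpha, from Top2a, passes DNA strands through each other so that sister chromatids can be separated, and Ki-67, from Mki67, coats mitotic chromosomes and keeps them apart; Cdca2 encodes Repo-Man, a partner of protein phosphatase 1 that returns to chromosomes at anaphase. In the embryonic cortex these genes are expressed in dividing progenitors, and Ki-67 is the usual stain for cycling cells.

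Many genes that peak in G2 and M phase carry a CHR element, bound by MuvB complexes, near a CCAAT box, bound by NF-Y, in their promoters. To show whether the 10 genes share these letters, the 250 bases before the annotated start were read from RefSeq promoter windows (build GRCm38.p6). A window was found for 8 of the genes, all but Smc4 and Cdca2. The lines below give 6 of them, 5 with a CHR match and Ncaph with none, written 5′ to 3′ on the gene's strand; capitals mark matches to TTTGAA (CHR) or CCAAT, or to their reverse complements TTCAAA and ATTGG.
Mki67, chr7:135716380-135716629, minus strand: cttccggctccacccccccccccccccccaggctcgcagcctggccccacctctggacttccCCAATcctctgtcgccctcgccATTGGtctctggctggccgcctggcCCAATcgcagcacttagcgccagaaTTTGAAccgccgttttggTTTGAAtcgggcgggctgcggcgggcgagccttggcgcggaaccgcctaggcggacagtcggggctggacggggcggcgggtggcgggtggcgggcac
Top2a, chr11:99024190-99024439, minus strand: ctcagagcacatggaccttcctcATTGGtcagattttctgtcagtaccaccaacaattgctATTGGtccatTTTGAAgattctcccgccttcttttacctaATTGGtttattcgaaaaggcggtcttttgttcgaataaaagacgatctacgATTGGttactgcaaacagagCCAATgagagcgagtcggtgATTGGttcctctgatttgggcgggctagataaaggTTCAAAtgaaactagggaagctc
Ncapd2, chr6:125191587-125191836, minus strand: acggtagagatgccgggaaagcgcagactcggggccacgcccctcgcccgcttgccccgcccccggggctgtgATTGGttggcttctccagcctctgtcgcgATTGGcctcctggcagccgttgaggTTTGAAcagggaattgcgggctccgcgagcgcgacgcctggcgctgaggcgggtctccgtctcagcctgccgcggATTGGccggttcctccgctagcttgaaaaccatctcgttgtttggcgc
Ncapg, chr5:45669675-45669924, plus strand: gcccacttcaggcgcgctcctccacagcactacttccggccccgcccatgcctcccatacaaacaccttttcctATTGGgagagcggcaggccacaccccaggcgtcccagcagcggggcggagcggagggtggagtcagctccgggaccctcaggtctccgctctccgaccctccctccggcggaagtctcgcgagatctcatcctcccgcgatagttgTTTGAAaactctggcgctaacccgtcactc
Ncapg2, chr12:116405186-116405435, plus strand: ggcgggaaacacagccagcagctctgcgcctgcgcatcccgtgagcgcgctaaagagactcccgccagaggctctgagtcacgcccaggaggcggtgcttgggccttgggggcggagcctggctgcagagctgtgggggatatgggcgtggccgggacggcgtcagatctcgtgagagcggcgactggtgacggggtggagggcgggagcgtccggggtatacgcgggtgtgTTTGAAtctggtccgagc
Ncaph, chr2:127133955-127134204, minus strand: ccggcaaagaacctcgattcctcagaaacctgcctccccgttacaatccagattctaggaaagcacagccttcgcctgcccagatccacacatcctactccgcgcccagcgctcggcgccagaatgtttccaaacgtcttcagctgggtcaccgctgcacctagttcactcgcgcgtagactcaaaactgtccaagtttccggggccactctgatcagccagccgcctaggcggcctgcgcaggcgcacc

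The CHR letters were found in 7 of the 8 genes and in 16% of the 32851 mouse promoter windows of the same length. The 8 genes had 9 windows. Genes are thus set beside windows here and below, and a gene with more windows has more chances to match. Ncaph had neither motif, and Ncapd3 had a CHR match only in a second annotated start's window, 249 bases before that start. CCAAT was found in 5 genes (Mki67, Top2a, Ncapd2, Ncapg and Smc2) against 33.8% of all windows, and those same 5 held both motifs, against 5.55%. The positions differed. The Mki67 window held CHR matches starting 116 and 98 bases before the start, with the nearest CCAAT 141 bases before it. Top2a held 6 CCAAT matches and 2 CHR matches, at 179 and, on the other strand, 23 bases. The CHR match of Ncapg2 lay 18 bases before the start, that of Ncapg 30 bases and that of Ncapd2 123 bases. No match overlapped another. A match of this kind is a count of letters and was not tested for binding.

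WT DMSO replicate 1 was the shallowest library, at 20.2 M estimated counts, and the next held 31.8 M and the deepest 36.9 M. The targeted gene was not lower in the KO groups: Chd1 stood at 60.2, 68.1, 64.8 and 73.8 CPM (counts scaled to library size) in the WT DMSO libraries, 65.2 to 71.0 CPM under vehicle in KO cells, 68.5 to 77.0 CPM with DHT and 59.9 to 72.9 CPM with both agents. Whole-gene RNA does not read the edited site, so the genotype is taken from the labels alone. Of 8 neural progenitor markers 7 averaged 1 TPM or more over the libraries (abundance scaled to transcript length and library size), Hes5 being the exception, and their summed level overlapped between groups. Of 5 neuron markers 3 did, Map2 at 215 to 468 TPM, Tubb3 at 27.9 to 47.1 TPM and Snap25 at 1.56 to 6.35 TPM, while Dcx and Rbfox3 averaged less. The neuron markers summed to 249 to 487 TPM in WT DMSO, 273 to 448 TPM in KO DMSO, 309 to 518 TPM in KO DHT and 297 to 500 TPM in KO DHT+ENZ, which overlap. All 3 endothelial and all 5 pericyte and fibroblast markers averaged below 1 TPM, although single libraries reached 2.68 TPM (Pecam1) and 2.52 TPM (Col1a1); Olig2 was at 422 to 577 TPM. On the first principal component (36.0% of variance) replicates 1 and 4 of every group lay opposite replicates 2 and 3, and on the second (14.5%) WT DMSO replicate 1 stood apart. Transcripts of the mitochondrial genome took 4.31 to 4.50% of counts in KO DHT+ENZ, 2.90 to 3.63% in KO DHT, 3.53 to 3.74% in KO DMSO and 1.35 to 3.59% in WT DMSO, so every KO DHT+ENZ library lay above every other library. The part of this share, or of the replicate split, in the results below was not tested.

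Per transcript length the 10 genes differed widely in level. Over protein-coding transcripts in WT DMSO, the level was highest for Top2a, at 123 ± 17.4 TPM (mean ± SD, n = 4 here and throughout). Ncapd2 (86.5 ± 11.5 TPM) and Ncaph (59.3 ± 2.41 TPM) followed, then Mki67 (48.4 ± 6.19), Smc2 (39.3 ± 8.12), Smc4 (35.8 ± 4.98), Ncapg2 (25.4 ± 8.45), Cdca2 (24.4 ± 2.06), Ncapg (18.8 ± 4.11) and Ncapd3 (11.4 ± 2.58). In that order Top2a and Ncapd2, Ncapd2 and Ncaph, and Cdca2 and Ncapg were separated over the 4 libraries, and every other neighbouring pair overlapped. Within condensin I, whose added subunits occur once each per complex, Ncapg RNA was the scarcest, and within condensin II Ncapd3 was the scarcest beside Ncaph2 at 52.1 ± 0.376 TPM.

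All 10 genes were lower in KO DHT+ENZ than in KO DHT, in 4 of 4 same-numbered pairs each. The fitted log2 fold changes ran from -0.69 (Mki67) to -0.24 (Ncapd3), with a median of -0.57, beside a median of -0.002 over the 16971 genes tested. For 9 of the 10 genes the 4 KO DHT+ENZ values all lay under the 4 KO DHT values, the exception being Ncaph; 2.97% of all genes tested were that separated in this direction. By edgeR's quasi-likelihood test 5 of the 10 genes passed an adjusted p of 0.05 (Mki67, Cdca2, Top2a, Smc2 and Ncapd2), where 0.189% of all genes passed as lower. With the replicate number as a block 8 passed, all but Smc4 and Ncapd3, where 1.92% of all genes passed as lower. Because the genes were chosen with this contrast in view, nothing is read from these counts. The count was 0 without KO DHT+ENZ replicate 2, 2 without replicate 4 of that group, 3 without its replicate 1 or without KO DHT replicate 1 or 3, and 8 without WT DMSO replicate 1. An offset for effective transcript length, with which changes ran at a Spearman's rho of -0.592 to 0.203 within pairs, left 2 passing (Mki67 and Cdca2) but moved no fold change by over 0.10, the largest move being Ncapg2 from -0.47 to -0.38. Over all genes, in either direction, 12 of 16971 passed with that offset and 116 of 17230 without WT DMSO replicate 1. With each library left out in turn, the count over all genes ran from 2 to 116. The low counts of the 10 genes in those fits are therefore not read as a result about these genes. In bulk RNA, fewer cells in division and less RNA per dividing cell cannot be told apart.

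**Figure D1:**
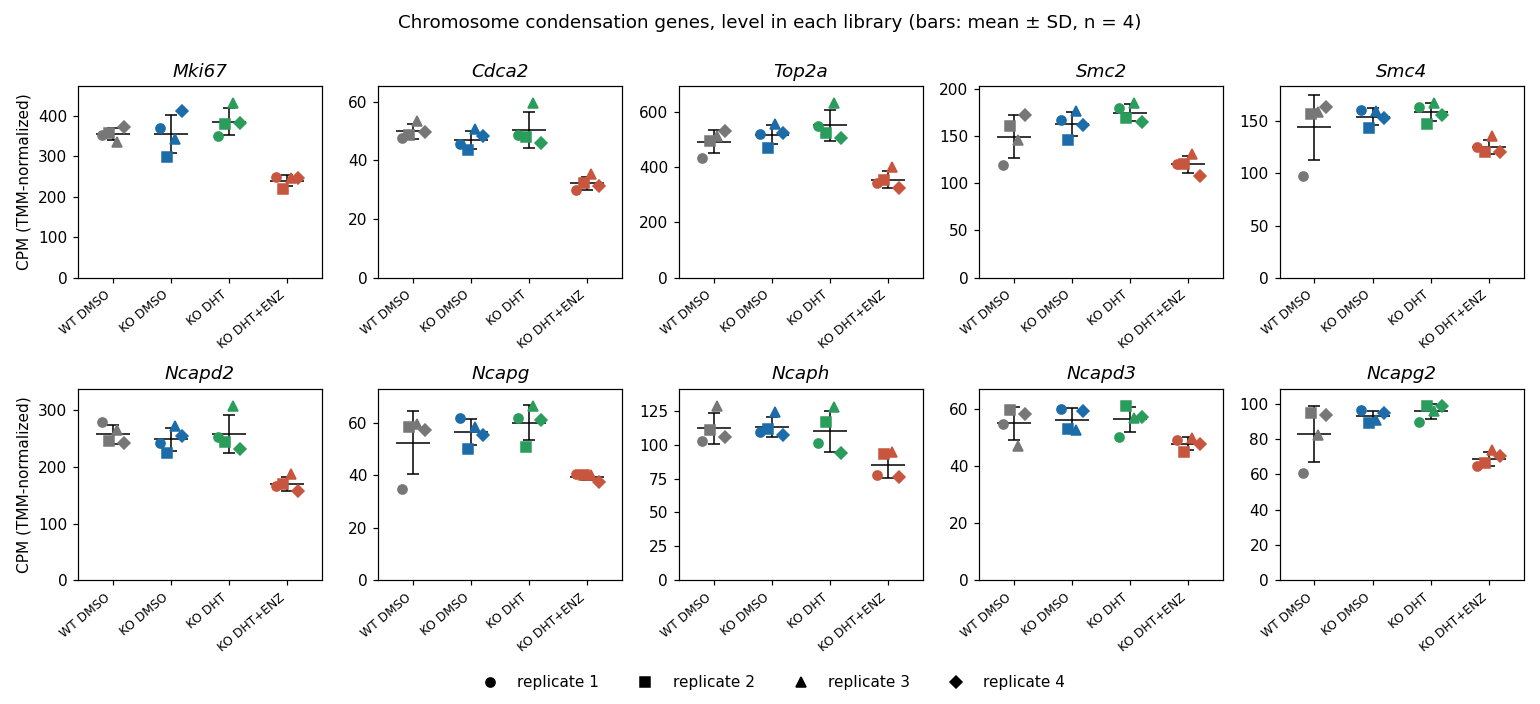
Level of each of the 10 genes in every library, in CPM on axes that start at 0; marker shapes give the replicate number, and black bars the mean ± SD of 4 libraries. The KO DHT+ENZ points lie lowest in each panel apart from overlaps with single KO DHT or WT DMSO libraries, such as the Ncapg, Ncapg2, Smc2 and Smc4 values of WT DMSO replicate 1.

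Both genes of the chromosome periphery were among the most reduced. Mki67 was at 248, 219, 247 and 247 CPM in KO DHT+ENZ replicates 1 to 4 and at 350.0, 379, 432 and 384 CPM in KO DHT. In KO DMSO it was at 371, 299, 344 and 412 CPM, and in WT DMSO at 352, 359, 337 and 373 CPM. Every KO DHT+ENZ library lay below all 12 others, and the other 3 groups overlapped one another. The log2 fold change against KO DHT was -0.69 ± 0.10 (SE), and the group mean was 37.8% lower.

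Cdca2, the Repo-Man gene, was expressed at a lower level with the same pattern: 29.9, 32.3, 35.4 and 31.2 CPM in KO DHT+ENZ against 48.7, 48.0, 59.5 and 45.8 CPM in KO DHT. It stood at 45.7, 43.4, 50.7 and 48.3 CPM in KO DMSO and 47.8, 48.7, 53.6 and 49.7 CPM in WT DMSO. No KO DHT+ENZ value reached the lowest value of any other group. The fold change against KO DHT was -0.65 ± 0.09 on the log2 scale, a mean 36.2% lower.

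Top2a, the most abundant of the 10, was at 343, 353, 398 and 325 CPM in KO DHT+ENZ. It was at 549, 522, 630.5 and 505 CPM in KO DHT, 521, 470.3, 557 and 524 CPM in KO DMSO and 432, 494, 511 and 530.0 CPM in WT DMSO. Again the KO DHT+ENZ libraries were below all others, with a log2 fold change against KO DHT of -0.64 ± 0.10 and a similar step in each pair, from -0.56 to -0.68. Its paralog Top2b, the form of topoisomerase II that cells keep after they stop dividing, was at 421, 404, 376 and 417 CPM in KO DHT+ENZ and 432, 426, 415 and 446 CPM in KO DHT. Those groups overlapped, and the Top2b change was -0.09 ± 0.11 (adjusted p = 1.00 by edgeR).

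The 2 ATPases of the condensin core were reduced to different extents. Smc2 was at 121, 120.4, 131 and 108 CPM in KO DHT+ENZ, against 179.7, 169, 184 and 165 CPM in KO DHT and 167, 145, 176 and 162 CPM in KO DMSO. Smc4 was at 125, 120.5, 136 and 120.4 CPM in KO DHT+ENZ, against 163, 147, 167 and 156 CPM in KO DHT and 161, 144, 160.1 and 153 CPM in KO DMSO. Neither gene's KO DHT+ENZ values overlapped those of either KO group. The log2 fold change against KO DHT was -0.54 ± 0.10 for Smc2 and -0.34 ± 0.12 for Smc4; the difference between the 2 genes was not tested. In WT DMSO, replicate 1 was low for both genes (119 and 97.3 CPM) beside 146 to 172 CPM of Smc2 and 157 to 163 CPM of Smc4 in replicates 2 to 4, so KO DHT+ENZ overlapped WT DMSO only through that library. The spread of that library enters the common fit, and without it Smc4 was -0.34 ± 0.06.

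Among the subunits specific to condensin I, the HEAT-repeat subunit gene Ncapd2 was at 166, 169, 187 and 157 CPM in KO DHT+ENZ and 252, 244, 307 and 231 CPM in KO DHT. KO DMSO held 242, 225, 273 and 255 CPM and WT DMSO 278, 245, 264 and 242 CPM. Every KO DHT+ENZ library was below all other libraries, and the change against KO DHT was -0.61 ± 0.10. Ncapg, the other HEAT-repeat subunit of condensin I, was at 40.5, 40.3, 40 and 37.4 CPM in KO DHT+ENZ and 62.0, 50.7, 66.5 and 61.1 CPM in KO DHT. Its change, -0.60 ± 0.14, was as large as that of Ncapd2 but with a wider error, and its WT DMSO values were 34.7, 58.3, 59.7 and 57.4 CPM, replicate 1 lying below even the KO DHT+ENZ libraries. Without WT DMSO replicate 1 the estimate was -0.60 ± 0.09.

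Ncaph, the kleisin that closes the condensin I ring, was at 77.8, 93.3, 94.3 and 75.9 CPM in KO DHT+ENZ and 101, 117, 128 and 93.9 CPM in KO DHT. The groups overlapped by 1 library on each side, yet replicates 3 and 2 were the highest and replicates 1 and 4 the lowest in both. Within pairs the difference was even, from -0.31 to -0.43. The fitted change was -0.36 ± 0.11, and ± 0.06 with the replicate block.

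The smallest change of the 10 was in a condensin II gene. Ncapd3, a HEAT-repeat subunit, was at 49.1, 44.9, 49.8 and 47.6 CPM in KO DHT+ENZ and 50.3, 61.1, 56.9 and 57.2 CPM in KO DHT. The ranges only just cleared each other, and the change was -0.24 ± 0.09. Ncapg2 was at 65.0, 66.5, 73.7 and 70.6 CPM in KO DHT+ENZ and 89.9, 98.8, 95.7 and 98.6 CPM in KO DHT, a clear separation with a change of -0.47 ± 0.11. Ncaph2, the condensin II kleisin and not one of the 10, was at 115, 153, 144 and 125 CPM in KO DHT+ENZ and 146, 152, 192 and 139.6 CPM in KO DHT. Those ranges overlapped, and Ncaph2 did not pass the test (-0.23 ± 0.12, adjusted p = 0.811, or 0.0915 with the replicate block, by edgeR).

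Against KO DMSO, which received neither agent, the 10 genes in KO DHT+ENZ were again all lower in 4 of 4 pairs. This comparison shares the KO DHT+ENZ libraries with the previous one, so the second set of values does not stand on its own. The log2 fold changes were -0.57 ± 0.10 for Mki67, -0.55 ± 0.09 for Cdca2, -0.55 ± 0.10 for Top2a, -0.55 ± 0.10 for Ncapd2 and -0.51 ± 0.14 for Ncapg. They were smaller for Smc2 (-0.44 ± 0.10), Ncapg2 (-0.43 ± 0.11), Ncaph (-0.41 ± 0.11), Smc4 (-0.30 ± 0.12) and Ncapd3 (-0.23 ± 0.09). The median was -0.48, against 0.006 over all genes. Groups were fully separated for all 10 genes, where 3.18% of all genes were separated in this direction. In edgeR 4 genes passed (Mki67, Cdca2, Top2a and Ncapd2), where 0.200% of all genes passed as lower, and with the replicate block 7 passed, where 2.09% of all genes did. Here too the choice of genes used the contrast, 1 gene passed with the length offset, and leaving out single libraries gave counts from 0 (8 of 16 libraries) to 8 (WT DMSO replicate 1). Over all genes, in either direction, 10 of 16971 passed with that offset and 98 of 17230 without WT DMSO replicate 1. With each library left out in turn, the count over all genes ran from 0 to 98. Taking replicates 1 and 4 alone the median over the 10 genes was -0.57 against KO DHT and -0.54 against KO DMSO, and with replicates 2 and 3 alone it was -0.52 and -0.41, every gene being lower in each.

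**Figure D2:**
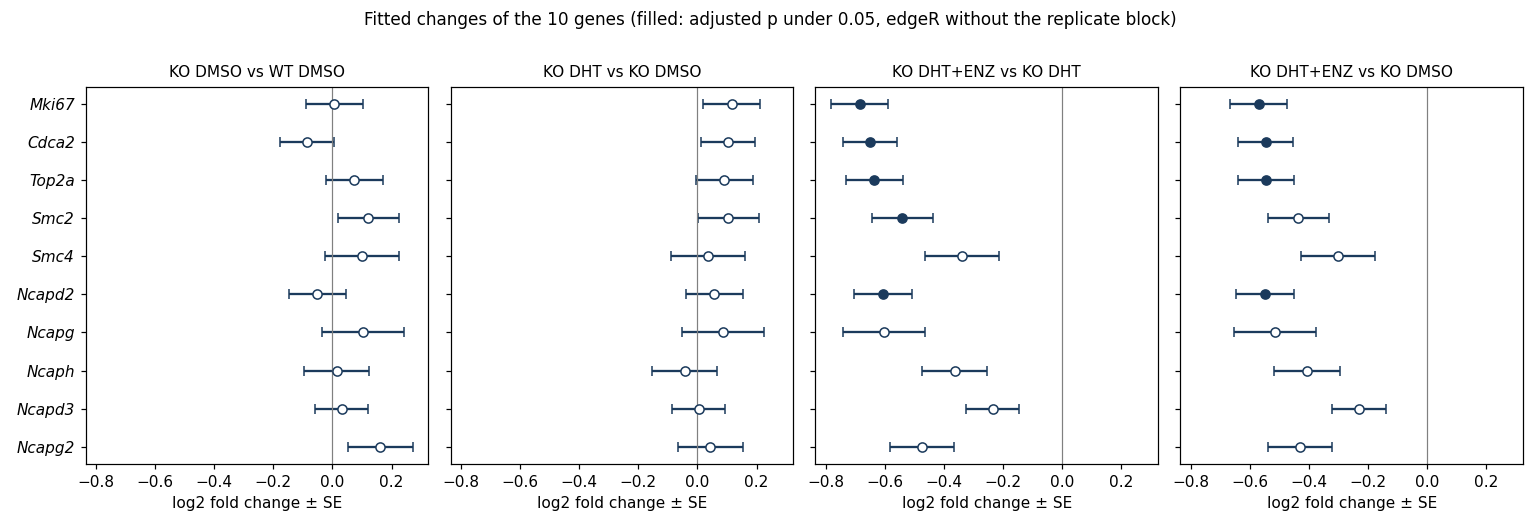
Fitted log2 fold change ± SE of the 10 genes in the 4 comparisons, from one edgeR model of all 16 libraries; filled points passed an adjusted p of 0.05 without the replicate block. The points of the first 2 panels lie between -0.09 and 0.16, and those of the last 2 panels between -0.69 and -0.23.

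Neither the Chd1 label nor DHT alone went with a detectable difference in these genes. In KO DMSO against WT DMSO the log2 fold changes ran from -0.09 (Cdca2) to 0.16 (Ncapg2), with a median of 0.05 and SEs of 0.09 to 0.14. None of the 10 passed edgeR's test (0 of 10 with an unadjusted p under 0.05, and 0 by DESeq2), and 0% of all genes passed. Cdca2 was lower in 4 of 4 pairs by 0.04 to 0.16 on the log2 scale, but its groups overlapped (adjusted p = 1.00, edgeR). Without WT DMSO replicate 1 the median was -0.004, with 5 genes higher and 5 lower. KO DHT against KO DMSO gave -0.04 (Ncaph) to 0.12 (Mki67), with a median of 0.07 and 9 of 10 genes higher. The sign for Mki67 differed between pairs, with 0.34 and 0.33 in replicates 2 and 3 and -0.08 and -0.10 in replicates 1 and 4. Over 9747 genes, changes ran with effective transcript length at a Spearman's rho of 0.0973, 0.66, 0.533 and 0.413 in pairs 1 to 4. With the length offset 8 of the 10 genes were higher, with a median of 0.07. The part of this trend in the changes was not tested. By edgeR again 0 of 10 passed, 0 had an unadjusted p under 0.05 and 0 passed by DESeq2; 0% of all genes passed. Without KO DHT replicate 3, which had the highest value of 8 of the 10 genes in its group, the median was 0.02 with 7 genes higher.

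Mean levels ordered as KO DHT, KO DMSO, WT DMSO and KO DHT+ENZ for 7 of the 10 genes, and for all 10 the KO DHT+ENZ mean was the lowest. Among neighbours in each gene's order, the step down to KO DHT+ENZ was free of overlap for Mki67, Top2a, Ncapd2 and Cdca2, and no other step was for any gene. Differences among the other 3 groups lay within the spread over libraries.

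Other genes of chromosome structure and DNA topology were read from the same fit. Of 20 further genes that act on or with condensin, Ki-67 or Repo-Man, 2 passed as lower in KO DHT+ENZ against KO DHT and none as higher: Kif4 (-0.60 ± 0.11, adjusted p = 0.0286), a chromokinesin that works beside condensin on the chromosome axis, and the spindle kinesin Kif15, which binds Ki-67 (-0.69 ± 0.11, adjusted p = 0.0132; both edgeR). The list median was -0.10, and with the replicate block 7 passed, the others being Kif22, Nusap1, Cdk1, Plk1 and Aurkb. Against KO DMSO the same 2 genes passed (Kif4 -0.60, Kif15 -0.57; median -0.13), and with the block the same 7. With the length offset Kif4 alone passed in both comparisons, and Kif15 had an adjusted p of 0.189 against KO DHT and 0.213 against KO DMSO (edgeR). Kif15 was at 39.5 ± 2.57 CPM in KO DHT+ENZ and 63.6 ± 5.23 CPM in KO DHT, and Kif4 at 45.1 ± 3.38 and 68.1 ± 8.68 CPM.

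Cohesin, the ring complex that holds sister chromatids together, is built on Smc1a and Smc3, relatives of Smc2 and Smc4. Of 17 cohesin genes 0 passed in KO DHT+ENZ against KO DHT (edgeR; 6 had an unadjusted p under 0.05, 2 passed by DESeq2 and 3 without WT DMSO replicate 1), and the median was -0.18. The log2 fold change was -0.20 ± 0.10 for Smc1a (adjusted p = 0.753) and -0.20 ± 0.08 for Smc3 (adjusted p = 0.507). Nearest to the threshold was Espl1, the separase that cuts cohesin at anaphase (-0.55 ± 0.13, adjusted p = 0.12), followed by the cohesin subunit gene Rad21 (-0.28 ± 0.08, adjusted p = 0.257). With the replicate block 4 passed, Cdca5, Rad21, Espl1 and Sgo1, which encode cohesin itself or its mitotic regulators. Of 9 genes listed with the SMC5/6 complex, which acts in DNA repair, 0 passed, and the median was -0.15. They include Smchd1, an SMC relative outside that complex. Of the 9 genes, 1 had an unadjusted p under 0.05 (edgeR), and 0 passed with the block or by DESeq2. Over all 16971 genes tested, 1182 had an unadjusted p under 0.05 against KO DHT and 978 against KO DMSO (edgeR). Of 7 other topoisomerase and related repair genes 0 passed as well (median -0.09; 0 at an unadjusted p under 0.05, with the block or by DESeq2). Against KO DMSO the 3 medians were -0.06, -0.07 and -0.09, and edgeR without the block passed 0 genes in each list, with 7, 0 and 0 at an unadjusted p under 0.05. Of the cohesin genes the same 4 passed against KO DMSO with the block, 2 by DESeq2 (Espl1 and Rad21) and 4 without WT DMSO replicate 1; in the other 2 lists 0 passed in any of these settings. Whether the 10 genes changed more than these lists was not tested.

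Genes of mitosis and of S phase were read in the same way. Of 30 mitosis genes 8 passed as lower in KO DHT+ENZ against KO DHT (median -0.51; 29 with the replicate block, 14 without WT DMSO replicate 1 and 1 with the length offset), including the kinetochore genes Cenpf (-0.68 ± 0.11, adjusted p = 0.0135) and Cenpe (-0.65 ± 0.10, adjusted p = 0.0135) and the checkpoint kinase Bub1b (-0.57 ± 0.10, adjusted p = 0.0313; edgeR). With the length offset the gene that passed was Ttk, and Cenpf, Cenpe and Bub1b did not. Against KO DMSO 10 passed (median -0.57; 29 with the block, 16 without WT DMSO replicate 1 and 1 with the length offset). Of 30 S phase genes 1 passed against KO DHT, Pola1, the catalytic subunit of DNA polymerase alpha (-0.40 ± 0.08, adjusted p = 0.0444 by edgeR). With the length offset Pola1 did not pass (adjusted p = 0.166, edgeR) and the count was 0, while 16 passed with the block; the list median was -0.31. Against KO DMSO 0 S phase genes passed by edgeR, the median was -0.42, and 26 passed with the block. An unadjusted p under 0.05 was found for 15 of them, beside 978 of all 16971 genes (edgeR), and 2 passed by DESeq2. The mitosis list shares Cdk1, Aurkb and Plk1 with the list of condensin partners. MuvB and NF-Y are tied to the CHR and CCAAT letters shown in the promoters, while sites for E2F were not searched there. Of 14 tested MuvB, E2F and NF-Y factors 0 passed against KO DHT by edgeR. An unadjusted p under 0.05 was found for 3 of them, beside 1182 of all 16971 genes, and 3 passed with the block and 2 by DESeq2. One passed against KO DMSO, Foxm1 (-0.50 ± 0.10, adjusted p = 0.0467), the activator of G2 and M phase genes. With the length offset Foxm1 did not pass (adjusted p = 0.489, edgeR) and the count was 0, while 5 passed with the block. Neither KO DMSO against WT DMSO nor KO DHT against KO DMSO gave a passing gene in any of the 7 lists, by edgeR with or without the block or by DESeq2, and without the block 1 of the listed genes had an unadjusted p under 0.05 (Bub1 in KO DMSO against WT DMSO, 0.35 ± 0.14, adjusted p = 1.00). With the block, KO DHT against KO DMSO had 8 S phase, 4 mitosis and 3 condensin-partner genes under 0.05 unadjusted (edgeR), beside 1358 of all 16971 genes. KO DMSO against WT DMSO had 6 S phase and 2 mitosis genes, beside 1329. Every other list had 0 or 1. With DHT 27 of 30 S phase and 21 of 30 mitosis genes were lower, where 9 of the 10 condensation genes were higher. These directions were not tested.

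**Figure D3:**
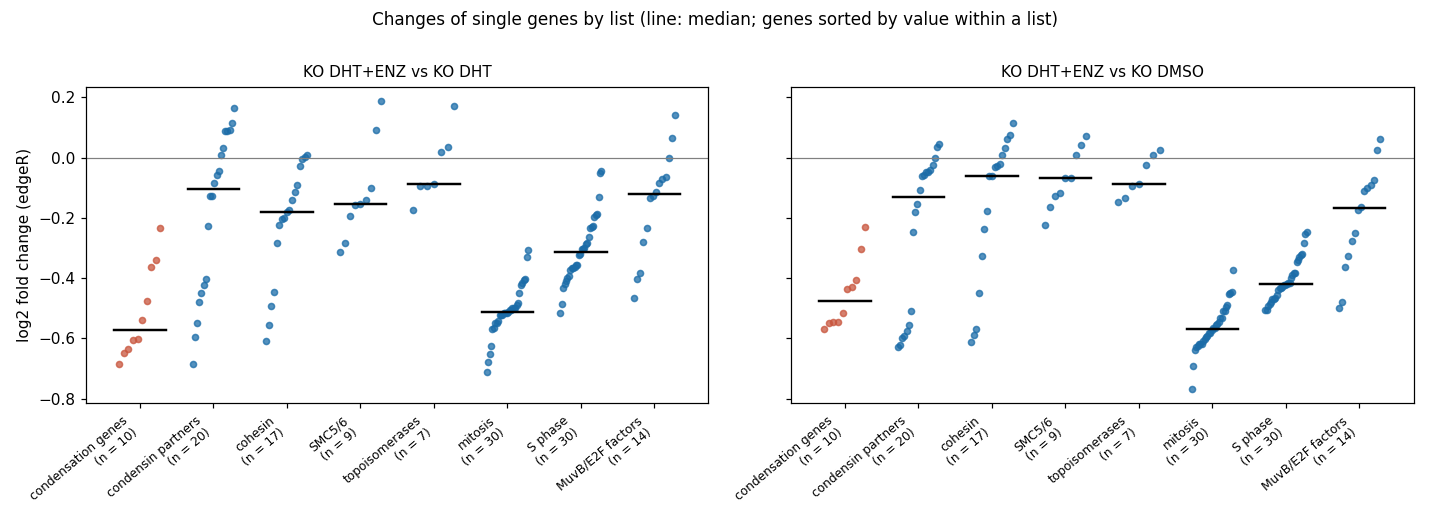
Fitted log2 fold changes of single genes in KO DHT+ENZ against KO DHT (left) and KO DMSO (right), by list, each point being 1 gene and each black line the list median. The medians of the 10 condensation genes (-0.57 and -0.48) and of the mitosis list (-0.51 and -0.57) lie lower than those of the cohesin (-0.18 and -0.06), SMC5/6 (-0.15 and -0.07) and topoisomerase lists (-0.09 in both); the lists were not compared by a test.

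Ratios within a library show how the set shifted internally. The log2 ratio of Top2a to Top2b over protein-coding transcripts was 0.91 ± 0.14 in WT DMSO, 1.03 ± 0.13 in KO DMSO and 1.02 ± 0.08 in KO DHT. In KO DHT+ENZ it was 0.36 ± 0.05, and its highest library (0.42) lay under the lowest of the other 12 (0.76). The ratio of the condensin I to the condensin II subunits was 0.66 ± 0.13 in KO DHT+ENZ, against 0.86 ± 0.10 in KO DHT, with ranges that just overlapped (0.49 to 0.77 and 0.76 to 0.95). When every transcript of each gene was counted it was 0.17 ± 0.07 and 0.44 ± 0.13 without overlap, although KO DMSO (0.38 ± 0.13) reached down into the KO DHT+ENZ range. Smc2 over Smc4 was 0.10 ± 0.21 in KO DHT+ENZ, which overlapped 0.35 ± 0.20 in KO DHT. The condensin core over the cohesin core (Smc2 and Smc4 over Smc1a and Smc3) was -0.69 ± 0.08 and -0.47 ± 0.16 in these groups, also with overlap. As the members were chosen for their lower level, these ratios are given without a test.

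**Figure D4:**
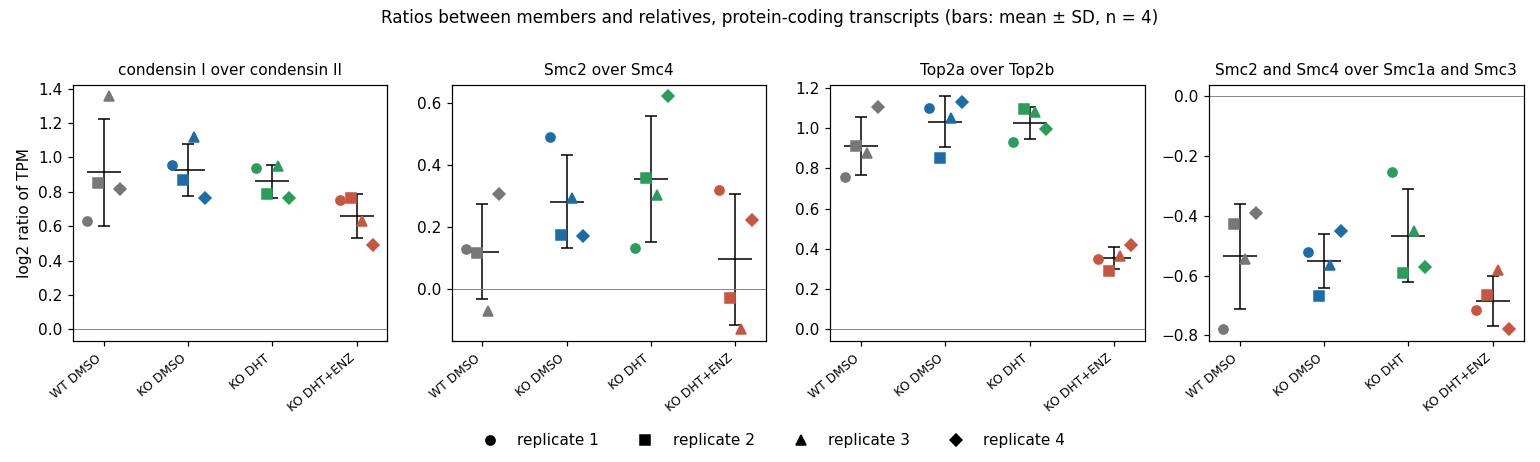
Log2 ratios of TPM over protein-coding transcripts in each library: condensin I over condensin II subunits, Smc2 over Smc4, Top2a over Top2b, and Smc2 and Smc4 over Smc1a and Smc3. In the Top2a panel the 4 KO DHT+ENZ libraries (0.29 to 0.42) are apart from the other 12 (0.76 to 1.13), and in the other 3 panels the groups overlap.

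For 5 of the 10 genes nearly all counts fell on 1 protein-coding transcript. Mki67-201 took 100% of the gene's estimated counts over all libraries, Ncapd2-201 95.0%, Ncaph-201 93.2%, Top2a-201 92.6% and Ncapg-201 91.3%. These shares are of counts, which are not scaled to transcript length, and in TPM short noncoding forms weigh more. In WT DMSO the mean over all transcripts and over coding ones was 231 and 123 TPM for Top2a and 128 and 86.5 TPM for Ncapd2. It was 69.2 and 59.3 TPM for Ncaph, 20.9 and 18.8 TPM for Ncapg, and 48.4 TPM both ways for Mki67. Smc2 was divided between 2 coding forms, Smc2-201 (71.6%) and Smc2-202 (28.2%), and so was Cdca2, with 57.0% in Cdca2-207 and 36.0% in Cdca2-205. Ncapg2 was divided between the coding Ncapg2-201 (48.4%) and the retained-intron Ncapg2-206 (49.4%). Smc4 had 59.6% in Smc4-201 and 30.7% in Smc4-207, which is annotated for nonsense-mediated decay, and Ncapd3 had 69.5% in Ncapd3-205 and 23.4% in the processed transcript Ncapd3-204. In KO DHT+ENZ the share of Ncapg2-206 was 49.0 ± 3.89% against 47.1 ± 1.27% in KO DHT, and that of Smc4-207 was 29.2 ± 11.5% against 32.2 ± 10.3%. These shares overlapped between the groups, and for Smc4-207 they ranged from 13.6 to 46.4% over the 16 libraries. The split of reads between overlapping transcripts is itself an estimate.

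**Figure D5:**
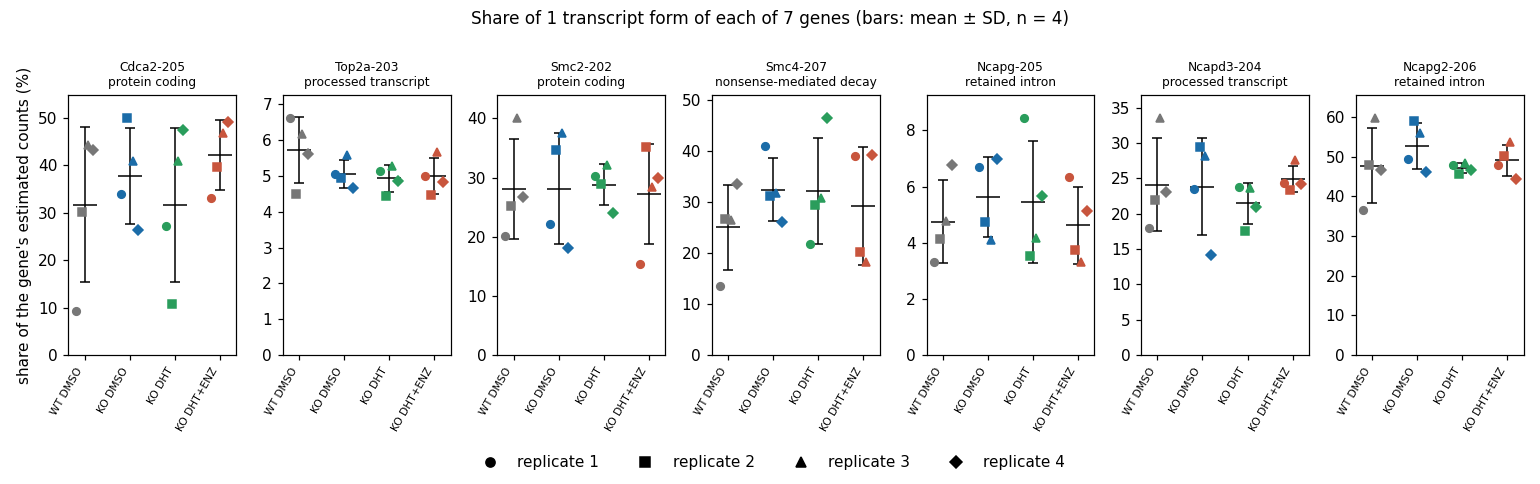
Share of the gene's estimated counts taken by 1 transcript form of each of 7 genes, in percent, with the annotated class of the transcript above each panel; points are libraries and bars the mean ± SD of 4. The 4 groups overlap in every panel, for example 36.5 to 59.6% for Ncapg2-206 in WT DMSO alone.

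Across the 16 libraries the 10 genes varied together, and they share the low KO DHT+ENZ group by which they were chosen. Pearson's r between pairs of the 10 (log2 CPM, 45 pairs) had a median of 0.757, from 0.418 for Ncapd3 with Smc4 to 0.976 for Ncapd2 with Cdca2. Leaving out WT DMSO replicate 1 raised the median to 0.902. Once each group's mean was removed the median was 0.38 and the range -0.285 (Ncapd2 with Ncapg2) to 0.948 (Ncapg with Smc4); both genes of the latter pair were low in WT DMSO replicate 1. These are descriptions over libraries that differ in depth, treatment and replicate number. Outside the set, and among 10918 genes that averaged 5 CPM or more, the levels most like the mean of the 10 were those of Zwilch (r = 0.983), Pola1 (0.969), Fanci (0.961), Prr11 (0.958) and Ttk (0.954). These values include the low KO DHT+ENZ group by which the 10 were chosen. Once each group's mean was removed the 5 nearest were Zwilch (0.906), Ckap2l (0.883), Tmem229a (0.882), Fanci (0.869) and Ctcf (0.853), so only Zwilch and Fanci were among the 5 both ways. Zwilch, a component of the kinetochore checkpoint complex that recruits dynein, averaged 34.5 CPM in KO DHT+ENZ and 45.3, 47.6 and 51.1 CPM in WT DMSO, KO DMSO and KO DHT, the same order of groups as Mki67.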

How the data were processed

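Poly(A) RNA of 16 cultures was sequenced as 150 bp read pairs, per the labels' protocols. Transcripts were quantified with kallisto against GRCm39, per the submitters' processing notes; the kallisto version and the annotation are not given in the sources used here. Each of the files the authors deposited lists, per the file headers, an estimated count, a TPM value and the transcript's length and effective length for 146190 transcripts. Of these, 135007 matched GENCODE M21 by identifier and were summed to 49166 genes, which kept 98.85 to 99.12% of the counts. That annotation is of an older build. It set the gene each transcript was summed to, the gene and transcript names, and the transcript class, such as protein-coding. Transcripts without a match were left out.

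The rounded gene sums of estimated counts went into edgeR 4.0.16 (R 4.3.3) with TMM scaling, filterByExpr (16971 genes kept), one quasi-likelihood model of the 4 groups over all 16 libraries, and Benjamini-Hochberg adjustment over all genes tested, with a call at an adjusted p of 0.05 and no minimum fold. CPM are TMM-scaled, and each SE was derived from the log2 fold change and its F statistic (|log2 fold change| over the root of F). Levels between genes and ratios used the deposited TPM values. The code was tested on simulated data.

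The numbers 1 to 4 recur in each group. Same-numbered libraries deviated together from their group means (r of 0.155 to 0.791 in every pair and comparison, over 9747 genes), so counts of calls are also given from the fit with the number as a block. By these deviations, the closest library of another group had the same number for only 10 of the 16 libraries. The labels do not say what a number shares. With the block the common coefficient of biological variation went from 0.212 to 0.122. Alternatives were DESeq2 1.42.0, limma 3.58.1 (voom), RLE scaling, other filters, a length offset, only the compared groups, pairs of replicates, and each library left out.

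The 10 genes and the 7 lists were chosen with earlier results of these data known. Genes named beside them are those that passed in each list (at most 5, smallest p; otherwise the 2 smallest), Ncaph2, Top2b, Smc1a, Smc3, Chd1 and the 5 genes most like the mean of the 10; in places fewer are printed. Lin54, of the MuvB list, was not analysed here. Promoter letters are from RefSeq, build GRCm38.p6.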

Additional observations from a re-analysis of the deposited data

Results flagged for a closer look

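In 3 of the 40 sets of 4 libraries (10 genes in 4 groups), 1 library lay far from the other 3, its gap to the nearest, as a share of the whole range, being above Dixon's 95% critical value; chance gives about 1 in 20 such sets. Mki67 was at 218.7 CPM in KO DHT+ENZ replicate 2, and at 246.9 to 248.1 CPM in the other 3 libraries of that group. Ncapg was at 34.71 CPM in WT DMSO replicate 1 beside 57.4 to 59.72 CPM in the others. Smc4 was at 97.29 CPM in that same library, against 156.7 to 163.3 CPM.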

How the results depend on the processing

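In KO DHT+ENZ against KO DHT and against KO DMSO all 10 were lower under every alternative run, and the number that passed varied with the setting. The weakest change against KO DHT went from -0.24 to -0.15 with replicates 1 and 4 only and to -0.17 with the length offset. Against KO DHT, where 5 passed, the count was 8 with the replicate block, 8 with DESeq2 and the block, 8 with limma-voom and the block as a random effect, 9 with the block and WT DMSO replicate 1 left out, 2 with the length offset, 0 with replicates 1 and 4 only and 9 with replicates 2 and 3 only (both with the block). Leaving out each library in turn gave 0 to 8. Against KO DMSO, where 4 passed, it was 7 with the replicate block, 8 with DESeq2, 8 with DESeq2 and the block, 8 with limma-voom, 9 with the block and without WT DMSO replicate 1, 1 with the length offset, 0 with no filter on low counts, 0 with only the compared groups and 0 with replicates 1 and 4 only; leaving out each library gave 0 to 8. In the other 2 comparisons 0 of the 10 passed in every setting, but signs varied. In KO DMSO against WT DMSO, 8 were higher, against 3 with replicates 2 and 3 only, and the highest value went from 0.16 to 0.37 with replicates 1 and 4 only. In KO DHT against KO DMSO, 9 were higher, against 5 with replicates 1 and 4 only. Over all genes, 45 passed against KO DHT (591 with the block, 2 to 116 with 1 library left out) and 43 against KO DMSO (499 with the block, 0 to 98). By DESeq2 without the block 211 and 180 passed, and with the length offset 12 and 10. Counts over all genes are not given for the other settings, so nothing is read there from the counts of the 10. A library left out also changes the shared estimate of spread, so libraries outside a comparison can move its count. The shallowest library held 20.2 M counts, and the lowest value of any of the 10 genes was 29.9 CPM (Cdca2 in KO DHT+ENZ replicate 1).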
